A study of Mus musculus with 16 samples.

Results

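DNA methylation was compared between 1 library of mature immune cells, labelled as taken from bone marrow and spleen, and 6 libraries of bone marrow cells, all from mouse experiments with LARRY barcodes. LARRY is a library of lentiviral DNA barcodes that marks the offspring of single transduced cells. The immune library was chosen by its sample title and held 7385 of the 95930 cells of the series, which has 16 libraries. The reference held 26090 cells, from 4 mice of the main LARRY experiment (main mouse 1 to 4) and 2 mice of its replicate (replicate mouse 1 and 2). All 7 libraries carry the cell type label immune cells, and the labels give no strain, age, sort or number of pooled animals. The immune library is 1 sample without a replicate, so its cell composition, its mice and its preparation cannot be told apart in any difference below.

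In scTAM-seq, run here on the Mission Bio Tapestri droplet instrument, DNA is cut by an enzyme that spares methylated sites before a panel of targets is amplified in each cell. Reads of an amplicon therefore mark cells in which its CpG, a cytosine followed by guanine, was methylated on 1 allele or both. Blood cells remodel DNA methylation as stem and progenitor cells mature, and lymphoid and myeloid cells come to carry different patterns. Some CpGs vary between cells for reasons other than cell type and are passed on at division, which is the basis of using them as marks of clones.

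The panel held 663 amplicons, known here by identifiers that the files do not pair with genes, positions or sequences. A cell counted as methylated at an amplicon with at least 1 read. The immune library was shallower, and its median cell had 23575 reads where those of the bone marrow libraries had 45003.5 to 89971, so every cell was thinned by drawing 12278 of its reads at random. Shallower cells were left out, 5.00% of the immune library and 0.324% to 2.92% of the bone marrow libraries, which left 7016 immune cells and 3305 to 5447 cells per bone marrow library. The immune library shared 6 to 23 cell barcodes with each bone marrow library. Constitutive amplicons, read in 90% or more of cells in each of the 7 libraries, numbered 72 and had a mean share of 98.4% in immune cells and 96.2% to 98.1% in bone marrow. At 41 amplicons with a mean share under 5% in bone marrow, the median share was 2.02% in immune cells and 1.28% to 1.67% in bone marrow. Reads carry no molecular identifiers. The exact binomial intervals given here are over the cells of 1 library, which are not replicates, so they cover counting error only.

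Immune cells were methylated in more cells than every bone marrow library at far more amplicons than the reverse. At 101 amplicons the immune share lay 10 or more percentage points above the highest of the 6 bone marrow libraries, 15.2% of the panel, and at 14 it lay 10 or more points below the lowest, 2.11% of the panel. The 101 had a median share of 79.6% in immune cells, and the median of their bone marrow means was 50.2%. The 14 had medians of 33.1% and 53.0%. At 20 points the numbers were 43 above and 1 below. The immune share was above the bone marrow range by any distance at 314 amplicons, below it at 71 and within it at 278. These shares chose the 115 amplicons, so their distance from bone marrow is a description.

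The farthest above was AMPL388656, read in 61.3% of immune cells (95% interval 60.2% to 62.5%). In the 6 bone marrow libraries its share was 0.676% at the lowest, 2.09% at the median and 3.93% at the highest. It was thus close to unmethylated in every bone marrow library and methylated in most immune cells. AMPL371358 was read in 86.5% of immune cells, against a lowest, median and highest of 35.4%, 38.0% and 40.4% in bone marrow. AMPL376917 was read in 87.2% of immune cells, against 26.6%, 40.4% and 49.1%. At AMPL366009 the immune share was 79.1%, against 29.9%, 41.4% and 48.0%. At these last 3 most bone marrow cells lacked a read and most immune cells had one. AMPL365943 was read in 69.7% of immune cells, against 26.7%, 31.6% and 33.2% in bone marrow.

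The farthest below was AMPL388365, read in 58.4% of immune cells (95% interval 57.2% to 59.5%). Its lowest, median and highest bone marrow shares were 79.3%, 81.3% and 91.4%, with both replicate mice above all main mice. AMPL371481 was read in 62.7% of immune cells, against 78.0%, 81.4% and 87.6%. AMPL355580 was read in 65.7%, against 80.4%, 83.9% and 88.3%. These 3 were methylated in most cells of bone marrow and in fewer immune cells. AMPL388404 was read in 43.9% of immune cells, against 62.4%, 64.9% and 70.3%. AMPL371312 was read in 10.8%, against 27.6%, 29.1% and 41.2%. AMPL388383 was read in 14.1%, against 28.9%, 32.0% and 39.2%. The last 2 were minority marks in bone marrow that few immune cells carried.

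**Figure D1:**
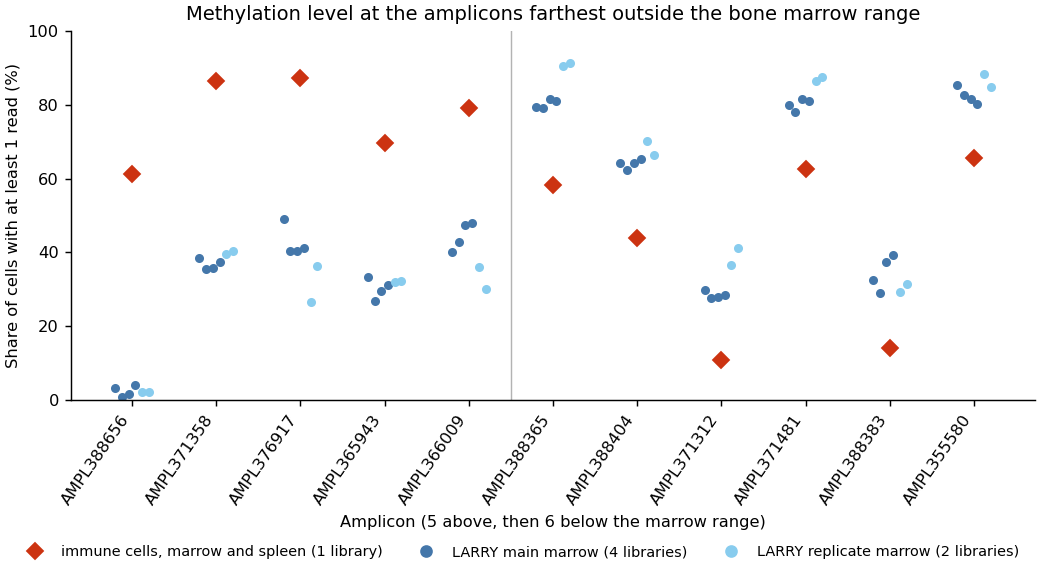
Share of thinned cells with at least 1 read (vertical axis, %) at the 5 amplicons described above the bone marrow range and the 6 farthest below it (horizontal axis). Red diamonds are the immune library, dark blue points the 4 main and light blue points the 2 replicate bone marrow libraries; at AMPL388656 the immune library sits at 61.3% and no bone marrow library is over 3.93%.

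Members close to the 10 point line show how little separates them. Just outside on the upper side, AMPL371427 was 10.1 points and AMPL388369 also 10.1 points above the highest bone marrow library. Just inside, AMPL388242 was 9.98 points and AMPL371738 9.65 points above it. On the lower side, AMPL371322 and AMPL388704 were outside at -10.3 and -10.5 points, and AMPL371663 and AMPL367054 inside at -9.99 and -9.57 points. AMPL371427 rests on a wide reference, with bone marrow shares from 12.2% to 35.0%. Among the 101, the 6 bone marrow libraries spanned more than 20 points at 16 and 10 points or less at 57.

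The depth handling moved the counts. Without thinning, 57 amplicons were above the line and 29 below it. All 57 were among the 101, and 99 of the 101 stayed above the bone marrow range by some distance. Of the 14 below, all 14 stayed past the line. Requiring 5 reads gave 95 above and 8 below, of which 71 and 7 were among the 101 and the 14. In a cell with a read, the 101 amplicons had a median of 11 reads in immune cells and 9 in bone marrow after thinning. The reference mattered too: the main mice alone gave 156 above and 15 below, and the replicate mice alone 122 above and 65 below. A smaller reference can only narrow the range, so these counts could not be lower.

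To set the differences against the spread between bone marrow libraries, cells that had a read and cells that had none were counted per library and compared by the quasi-likelihood test of edgeR, adjusted by Benjamini-Hochberg, which assumes that the single immune library would vary as the bone marrow libraries did. Of 611 amplicons with a mean share of 2 to 98%, 113 were called higher in immune cells, 18.5%, and 11 lower, 1.8%. The calls took in 82 of the 101 amplicons above the line and 5 of the 14 below it, and 31 higher and 6 lower inside the line. The line and this test read the same shares, so these counts do not support each other. The median difference over all amplicons tested was 0.44 log odds in favour of immune cells. With the median log odds of each library set equal, 64 amplicons were called higher and 51 lower. That setting centres the median difference near 0 and so takes out a shift common to the amplicons. It does not fix the numbers called on each side. A test on summed reads in place of cells called 12 higher and 1 lower with edgeR and 25 higher and 32 lower with DESeq2. With DESeq2 on summed reads there was thus no excess of higher calls. At the median amplicon tested, the difference on summed reads was 0.02 by edgeR and -0.10 by DESeq2 (log2).

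The amplicons named here were picked on the same shares as this test reads, so their differences are given as a description with no p-value. At AMPL388656 the difference was 4.35 log odds with a standard error of 0.64, and at AMPL371358 it was 2.36 with a standard error of 0.22. On the lower side AMPL388365 stood at -1.37 with a standard error of 0.45, and AMPL371312 at -1.34 with a standard error of 0.30. Of these 2, with differences of like size, AMPL388365 had the wider error.

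Immune cells also had the higher mean over intermediate amplicons as a whole. Over 420 intermediate amplicons, those with a mean share of 25 to 90% in bone marrow, the immune mean was 68.2% and the bone marrow mean 60.2% ± 2.99 (SD, n = 6), a difference of 7.96 points. Bone marrow libraries ran from 57.1% to 64.2%, so the immune library was above all 6. The 420 include amplicons past the line. Over the 321 inside it the immune mean was 66.5%, above the 58.7% to 60.5% of the main mice and just under the 66.6% and 66.9% of the replicate mice. For the 420, in an exact two-sided permutation test, p was 0.143, the smallest that 1 library against 6 can give. Without thinning the difference was 2.79 points (exact permutation p = 0.857) and no longer above every bone marrow library, which reached 70.4%. Against the main mice alone it was 9.52 points, and against the replicate mice alone 4.13 points.

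Counted cell by cell, most immune cells stood apart from most bone marrow cells. An immune cell had a read at a median of 75 of the 101 amplicons, with 60 at the 5th percentile and 90 at the 95th. The bone marrow medians were 48 to 52. A count of 60 or more was reached by 95.5% of immune cells and by 16.8% to 24.7% of cells in each bone marrow library. The bone marrow libraries had a lower hump of cells with about 30 to 38 of the 101 read, and 24.4% to 30.9% of their cells had fewer than 40. Only 0.556% of immune cells did. At the 14 amplicons below the range, immune cells had a median of 5 with a read and bone marrow cells 7 to 9. The 101 were chosen by their shares, so a higher count per cell follows from that choice.

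**Figure D2:**
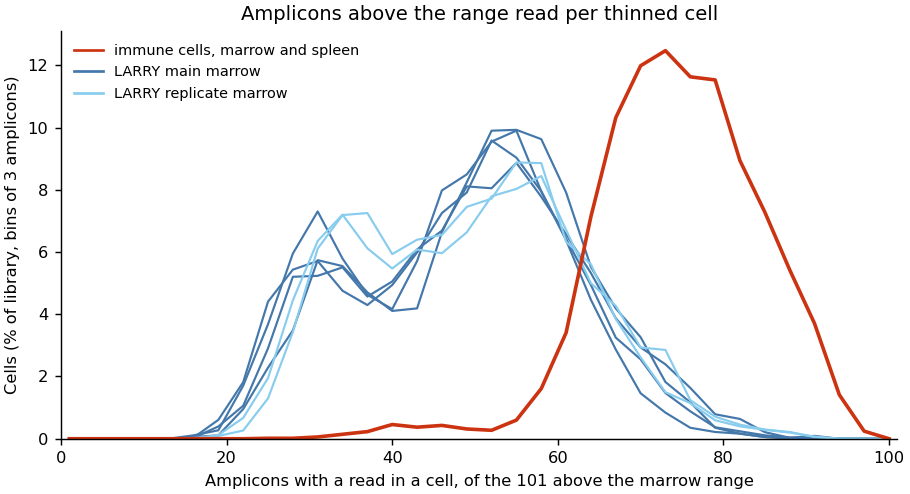
Number of the 101 amplicons above the range with a read in a cell (horizontal axis) against the percent of cells of a library (vertical axis, bins of 3 amplicons), in thinned cells. The red line is the immune library, the dark blue lines the main and the light blue lines the replicate bone marrow libraries; the immune line peaks at 72 to 74 amplicons with 12.5% of cells, and the bone marrow lines peak between 51 and 59 with a lower hump at 30 to 38.

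The 9 libraries that took no part in choosing the amplicons place the immune library among the rest. At 50 of the 101 amplicons the immune share was the highest of all 16 libraries, and at 73 the highest of the 15 other than lung endothelial cells. The immune share did take part in the choice, high at the 101 and low at the 14. The rank and mean of the immune library among the 16 are thus partly built in. The LARRY bone marrow libraries took part as well, as the low side at the 101 and the high side at the 14. Their means, and the place of other libraries between them and immune cells, are therefore partly built in too. The immune mean over the 101 was 73.8%, against 62.6% in lung myeloid cells and 61.1% in myeloid cells of bone marrow and blood. The mean was 58.6% in lung endothelial cells and 46.4% to 49.6% in LARRY bone marrow. Thinning left out 33.9% of lung myeloid cells, the shallower ones. The remaining bone marrow libraries lay at 54.4% (native), 52.9% and 56.4% (young), 54.7% and 59.6% (old) and 59.0% (transplant). At the 14 below, the immune mean of 36.7% was close to the 38.5% of myeloid cells of bone marrow and blood, and the immune share was the lowest of all 16 at 5.

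Single members differed in how far they set immune cells apart. AMPL388656 was read in 66.3% of cells of old library 2, more than the 61.3% of immune cells, and in 2.14% of native, 12.0% of old library 1 and 30.6% of marrow and blood myeloid cells. AMPL371358 was read in 66.0% of marrow and blood myeloid cells, 60.3% of lung myeloid cells and 2.93% of lung endothelial cells. At AMPL388404 the immune share of 43.9% lay among the 40.4% to 48.8% of every library other than the LARRY bone marrow and native ones, with native at 70.6%. AMPL371312 was as low in marrow and blood myeloid cells, at 11.5%, as in immune cells. These libraries are set against the same 6 bone marrow libraries, and no difference among them was tested.

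Co-variation between cells was measured as the share of variance on the first principal component, over 3000 cells drawn per library, after regression on log10 reads and on the number of constitutive amplicons read. Over the 115 amplicons past the line it was 7.97% in immune cells and 11.4% to 12.4% in bone marrow, so the immune library was below all 6. Over 321 intermediate amplicons inside the line it was 5.25% in immune cells and 2.44% to 3.40% in bone marrow, above all 6. Relative to bone marrow, the first component thus took less in immune cells at the amplicons past the line and more at the intermediate ones inside it. Other measures over the 115 did not all run that way: the next component took 5.05% in immune cells and 3.31% to 4.11% in bone marrow, and the median pairwise correlation of 0.0224 lay within the 0.0194 to 0.0330 of bone marrow. Both orders of the first component held under each of the 7 other settings of depth, read call, cells and covariates tried. In the other libraries of the series, the value over the 115 ran from 6.00% (lung endothelial) to 13.8% (transplant). It was 8.51% in marrow and blood myeloid cells and 8.38% and 8.69% in the young libraries, near the immune value. Over the 321, native stood at 2.31% and old library 2, at 5.64%, was above immune cells. Variance depends on level, and 25 of the 101 were read in 90% or more of immune cells. How much of the lower value that accounts for was not tested.

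**Figure D3:**
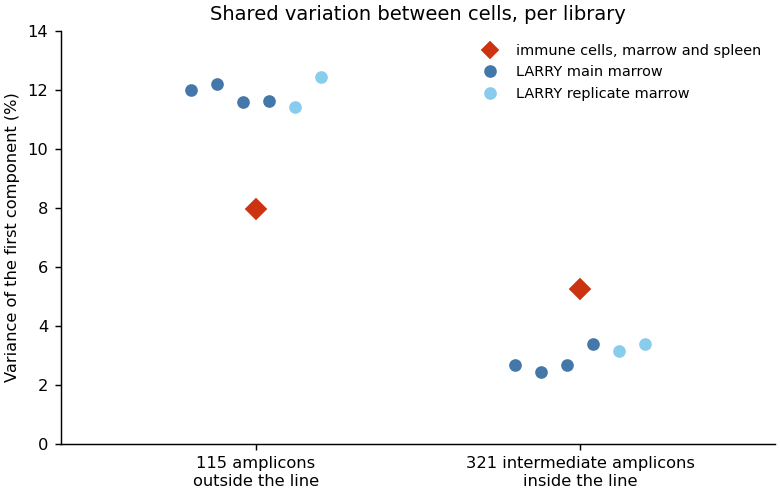
Variance taken by the first principal component (vertical axis, %) over the 115 amplicons outside the 10 point line and over the 321 intermediate amplicons inside it. The red diamond is the immune library and the points are the bone marrow libraries; the immune library is lowest at the left with 7.97% and highest at the right with 5.25%.

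Pairs of amplicons kept part of their relation. Among 6555 pairs of the 115, 1025 had a correlation across cells over 0.1 in immune cells and 1167 in the mean of the bone marrow libraries, and 640 in both, 62.4% of the first and 54.8% of the second. Across the pairs, the immune correlations had r of 0.556 to 0.647 with those of each bone marrow library. Any 2 bone marrow libraries had r of 0.896 to 0.969 with each other. Pairs share amplicons and are not independent. In 222 pairs the immune correlation was over that of every bone marrow library by more than 0.1, and in 478 it was under every one by more than 0.1. AMPL365901 and AMPL365938 had r of 0.50 in immune cells and 0.04 to 0.11 in bone marrow. AMPL355546 and AMPL366159 had r of 0.13 in immune cells and 0.41 to 0.57 in bone marrow. These 2 pairs were chosen after their values were seen.

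Average linkage at a correlation of 0.1 in immune cells gave 5 blocks of 5 or more amplicons, which took in 67 of the 115. Blocks were chosen on the immune correlations, so only their values in bone marrow are free of that choice. Block 1 held 30 amplicons, 28 above the range and 2 below it, led by AMPL365901 and AMPL366093. Its mean correlation was 0.187 in immune cells and 0.085 to 0.101 in bone marrow. AMPL365901 was read in 42.6% of immune cells, against a lowest, median and highest of 16.3%, 17.3% and 21.4% in bone marrow. AMPL366093 was read in 27.5%, against 9.62%, 11.1% and 17.2%. Both leading amplicons were thus carried by few bone marrow cells and by a minority of immune cells. Over the whole block the mean share was 57.7% in immune cells and 34.0% to 37.8% in bone marrow.

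Block 2 held 20 amplicons, all above the range, led by AMPL376551 and AMPL366082. Its mean correlation was 0.219 in immune cells and 0.367 to 0.401 in bone marrow, higher in each bone marrow library although the block was chosen in immune cells. AMPL376551 was read in 97.1% of immune cells, against 73.5%, 75.9% and 77.8%. AMPL366082 was read in 97.4%, against 57.2%, 66.3% and 69.0%. Over the block the mean share was 91.0% in immune cells and 61.6% to 67.3% in bone marrow. These amplicons varied together between bone marrow cells and were near full methylation in immune cells.

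The other 3 blocks were small. Block 3, with 6 amplicons led by AMPL371736 and AMPL388483, had a mean correlation of 0.168 in immune cells, within the 0.164 to 0.206 of bone marrow. AMPL371736 was read in 83.4% of immune cells, against 49.9%, 55.6% and 65.3%, and AMPL388483 in 71.6%, against 52.6%, 57.9% and 60.5%. Block 4, with 6 amplicons led by AMPL355676 and AMPL371452, had 0.135 in immune cells and 0.0309 to 0.0897 in bone marrow. Block 5, with 5 amplicons led by AMPL376449 and AMPL388427, had 0.190 in immune cells and 0.0119 to 0.0581 in bone marrow. The members of block 5 were chosen for varying together in immune cells. In bone marrow their mean correlation was low, and highest in replicate mouse 1, at 0.0581.

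Between blocks, the sign differed from bone marrow at blocks 1 and 3. Their mean correlation across blocks was -0.0548 in immune cells and 0.0595 to 0.106 in the bone marrow libraries. Blocks 2 and 3 had 0.0708 in immune cells and 0.220 to 0.254 in bone marrow, the same sign and a larger gap to the range.

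**Figure D4:**
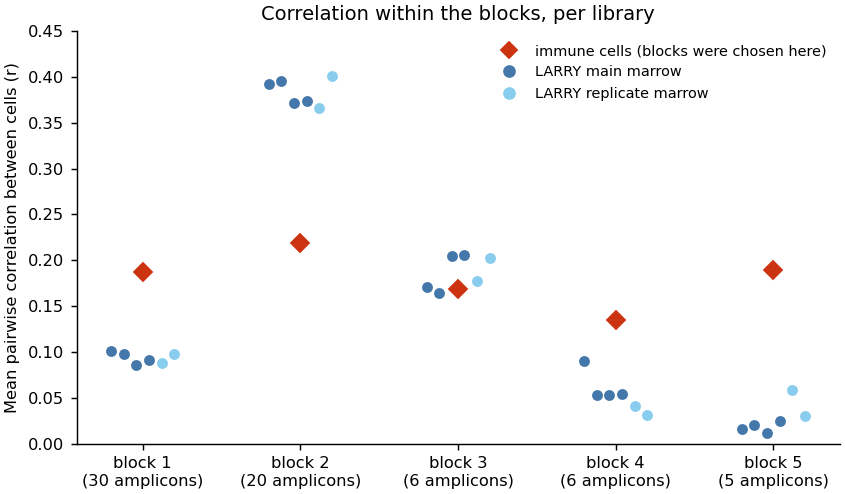
Mean pairwise correlation between cells (vertical axis, r) within each of the 5 blocks (horizontal axis), per library. The red diamond is the immune library, in which the blocks were chosen, and the points are the bone marrow libraries; block 2 is lower in immune cells, at 0.219, than in every bone marrow library, and block 5 is higher, at 0.190.

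Surface proteins were read in the same immune cells through antibody tags, counted as unique molecular identifiers (UMI). CD45R (B220) marks B cells, CD3 with CD4 or CD8 marks T cells, NK1.1 natural killer cells, Ly-6G neutrophils, Ly-6C monocytes, CD11b myeloid cells in general, F4/80 macrophages, CD11c dendritic cells, Siglec-F eosinophils and FceRIa mast cells and basophils. Of 17 tags, CD115, CD31 and Podoplanin had almost no counts and were left out of what follows. The other 14 had a median of 5 to 26 UMI per cell. Their counts rose and fell together between cells, with Spearman correlations of 0.580 to 0.801 between tags, so each was taken relative to the mean of all tags in its cell (the centred log ratio). The tags were weak: CD45R made up 4.13% of tag counts in cells and 4.04% in barcodes outside the cells, and CD11b 10.3% and 9.24%, over barcodes with up to 1000 UMI. Only Sca-1 and FceRIa of the 14 were also tagged in the bone marrow panel. With few markers per type and this background, cells are described by proteins and not by cell type names. In the 3 bone marrow libraries whose tags were used (main mouse 3, main mouse 4 and replicate mouse 1), c-Kit, the stem cell factor receptor of progenitors, made up 8.88% to 9.74% of tag counts in cells and 6.15% to 7.84% in barcodes outside the cells. Ter-119, a red cell protein, made up 1.16% to 1.57% in cells and 2.38% to 3.17% outside. Other tags used as progenitor markers ran both ways in these 3 libraries. CD48 and CD27 made up more of the counts in cells than outside. CD34, CD150, CD201, ESAM and Sca-1 made up less in cells than outside, with CD34 at 2.08% to 3.79% in cells and 6.62% to 8.68% outside. The difference for c-Kit was small, so the tags alone do not settle what these cells were.

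Some shifted amplicons followed these proteins, at about the rate of other amplicons. Over 5126 immune cells with 100 or more UMI, 70 of 1610 pairs of a shifted amplicon and a protein had a partial correlation of 0.1 or more in size, and at least 1 such pair was found for 32 of the 115 amplicons, 27.8%, and for 65 of the 321 intermediate amplicons inside the line, 20.2%. Over all 591 amplicons that are not constitutive, 1.76% of pairs were at 0.1 or more and 2.21% at -0.1 or less. Inside the line the count was 189 of 4494 pairs, 4.21%, close to the 4.35% of the shifted ones. CD11b had 8 positive and 18 negative shifted amplicons, of 31 and 79 among all 591. CD45R had 13 and 3, of 49 and 18. Ly-6C had 0 and 13, of 3 and 45, and Ly-6G 3 and 6, of 19 and 28. CD4 had 5 and 0, of 33 and 7, and Sca-1 1 and 0, of 10 and 0. No protein's count was tested against the other amplicons. CD3, CD8, NK1.1, CD11c, F4/80, Siglec-F and FceRIa had none.

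AMPL365901 of block 1 followed the most proteins, with a partial rho of -0.310 with CD11b, 0.210 with CD45R, -0.190 with Ly-6C, -0.178 with Ly-6G, 0.148 with CD4 and 0.115 with Sca-1. It was read in 79.7% of the 512 cells with the highest CD45R signal and in 32.6% of the 512 with the lowest. For CD11b the shares were 20.1% in the highest and 66.0% in the lowest. Cells high in CD11b were thus within the bone marrow range of 16.3% to 21.4% at this amplicon, and cells low in CD11b far above it. AMPL366093 ran the same way, with 63.7% in the highest and 19.3% in the lowest CD45R cells, and 8.01% and 47.7% for CD11b. Its share in the highest CD11b cells was under its bone marrow range of 9.62% to 17.2%.

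Other amplicons ran the opposite way. AMPL388656 was read in 82.4% of the highest and 52.1% of the lowest CD11b cells (rho 0.172), and in 36.7% of the highest and 72.9% of the lowest CD45R cells (rho -0.185). Every one of these values was over the bone marrow maximum of 3.93%. AMPL388483 of block 3 was read in 90.2% of the highest and 60.2% of the lowest CD11b cells (rho 0.195). AMPL371265 was read in 71.5% of the highest and 93.4% of the lowest CD45R cells. Of the amplicons below the range, AMPL388365 was read in 84.0% of the highest CD45R cells, inside its bone marrow range of 79.3% to 91.4%, and in 50.6% of the lowest. AMPL366060 was read in 34.0% of the highest and 10.5% of the lowest CD4 cells.

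Most shifted amplicons stayed on their side of the range in cells at either end of each protein's signal. They were chosen for a library share 10 or more points past the range, and the tags were weak. Much of this is therefore built in, and it does not show how far cell type matters. Across the 10% of cells with the highest and the 10% with the lowest signal of each of the 14 proteins, 96 of the 101 amplicons above the range had a share over every bone marrow library in all of these sets, and 9 of the 14 below had a share under every one. AMPL371358 ran from 85.2% to 93.8% over the sets, and AMPL388404 from 39.6% to 49.0%.

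Taken as blocks, block 1 had the strongest relation, with a partial rho of -0.254 with CD11b, -0.195 with Ly-6C, 0.173 with CD45R and 0.154 with CD4. Block 3 had the opposite sign, at 0.224 with CD11b and 0.166 with Ly-6G, and -0.104 with CD4. Block 2 stayed under 0.1 with every protein, its largest being 0.0821 with CD45R.

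Clustering the 7016 immune cells on the 115 amplicons alone gave 6 clusters. The proteins took no part in it. Cluster 1, with 1759 cells, had CD45R 0.30 higher (median centred log ratio, natural log, against all other cells) and CD11b 0.16 lower. It had the most of the 101 amplicons read, a median of 83, and block 1 at 79.6%. Cluster 4, with 963 cells, had CD4 0.25 and CD8 0.12 higher and CD11b 0.17 and Ly-6G 0.15 lower. Its block 1 share was 81.6%, like that of cluster 1, but its block 3 share was 38.2%, against 70.6% in cluster 1.

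Clusters 2, 3 and 5 were the ones with higher CD11b or Ly-6C. Cluster 3, with 1582 cells, had CD11b 0.18 and Ly-6G 0.12 higher, and the highest block 3 share at 84.7%. Cluster 2, with 1719 cells, had CD11b 0.11 and Ly-6G 0.10 higher and block 1 at 37.8%. Cluster 5, with 827 cells, had Ly-6C 0.10 higher, and block 5 stood at 28.5% in it, against 60.0% to 82.7% in the others. AMPL388656 was read in 79.6% and 84.5% of cells in clusters 2 and 3, 66.6% in cluster 4, 36.0% in cluster 1 and 31.7% in cluster 5.

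Cluster 6 held only 166 cells, or 2.37%. Its cells had a median of 44 of the 101 amplicons read, against 67 to 83 in the other clusters. Block 2 was at 24.4%, against 87.2% to 96.3% in the other clusters and 61.6% to 67.3% in bone marrow, and AMPL376917 was at 3.01%. Block 4 was at 87.0%, like the others. NK1.1 was 0.14 higher and CD11b 0.10 lower, over 104 cells with enough UMI. CD11c, Siglec-F, F4/80 and CD8 were 0.09, 0.08, 0.07 and 0.05 higher, and Sca-1, Ly-6G and Ly-6C 0.07, 0.06 and 0.04 lower. Before centring, the NK1.1 median was 8 UMI, as in clusters 1, 3, 4 and 5. Cluster 6 had the lowest median protein count, 117.5 UMI against 139 to 161 in the others. It also had the lowest median reads per cell, 21969, and the lowest constitutive share, 97.1%. The other clusters ran from 22717 to 25886 reads and from 97.7% to 98.8%. The part of these low counts in its profile was not tested.

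**Figure D5:**
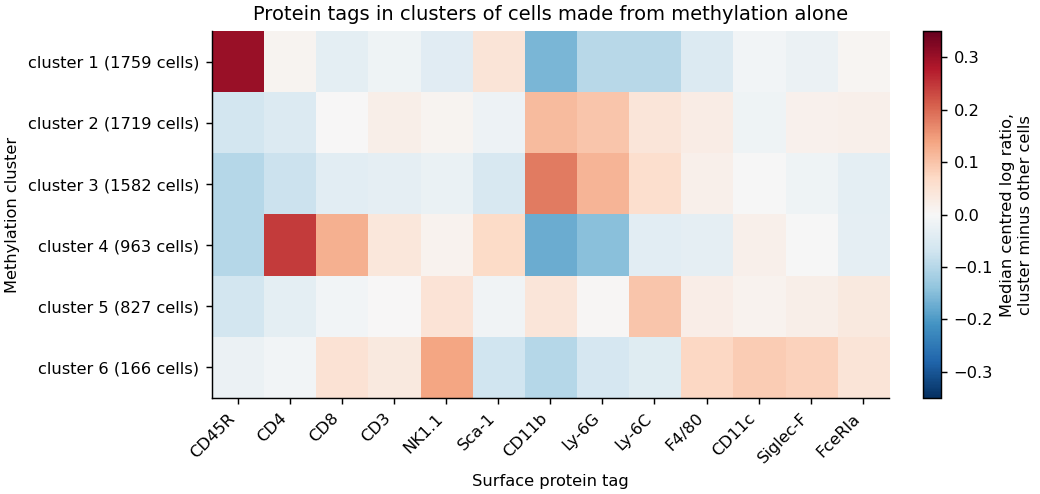
Difference in the median centred log ratio of protein tags (horizontal axis) between the cells of a methylation cluster and all other immune cells (color, natural log), for the 6 clusters (vertical axis). Red is higher and blue lower; CD45R is highest in cluster 1 at 0.30 and CD4 in cluster 4 at 0.25.

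The clusters show which differences from bone marrow were shared by the library and which came from some cells. At 70 of the 101 amplicons the share was over every bone marrow library in each of clusters 1 to 5, and at 38 in all 6 clusters. By cluster, 84 to 100 of the 101 were over the bone marrow maximum in clusters 1 to 5 and 46 in cluster 6. AMPL371358, at 76.1% to 94.3% in clusters 1 to 5, was over the bone marrow range in those and under it in cluster 6, at 25.3%. AMPL388404 was low throughout, at 40.7% to 48.8% in all 6. AMPL388365 was mixed, at 91.2% in cluster 1 and 81.9% in cluster 6, both inside the bone marrow range of 79.3% to 91.4%, and 15.5% in cluster 4. AMPL371481 ran from 30.9% in cluster 4 to 90.4% in cluster 6. The clusters were made from these same amplicons, so this is a description of the cells and not a test.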

How the data were processed

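The deposited tables hold counts of sequencing reads per amplicon in each cell, per the file headers and the series' design text, and counts of antibody tag UMI per cell barcode, per the file headers. The submitters' processing notes name the mm10 genome. For the aligner, the cell caller and the cell filters, the steps were not given in the sources used here. Doublets were not called.

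Each cell was thinned without replacement to 12278 reads, the lowest 5th percentile of reads per cell over the 7 libraries, and a read call was 1 read. Cells with a read and cells lacking one were counted per library and tested with edgeR 4.0.16 in R 4.3.3 (quasi-likelihood, an intercept per library, adjusted p below 0.05), keeping amplicons whose mean share was 2 to 98%. DESeq2 1.42.0 and limma 3.58.1 served as alternatives. Co-variation used scikit-learn 1.9.0 and scipy 1.17.1, on 3000 cells per library. Clusters came from leidenalg 0.10.2, with 10 components, 15 neighbours and resolution 0.5. Protein relations were partial Spearman correlations with the same covariates, over cells with 100 or more UMI, after dropping tags with a UMI in under 1% of cells. The code was tested on simulated data.

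Named amplicons were the 6 farthest outside the range on each side, the 2 just inside and the 2 just outside the line on each side, the 2 leading each block, and the largest positive and negative for each protein past 0.1. An amplicon and a protein are not reported here. The members and lists were chosen with earlier results of these data known. The 6 bone marrow libraries come from 2 experiments by their titles, a main one (4) and a replicate (2), and the p-values measure only the spread between these libraries. The alternatives tried were other read calls, depths, lines, reference libraries, tools, filters and covariates.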

Additional observations from a re-analysis of the deposited data

Results flagged for a closer look

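For each named amplicon and each co-variation value, the 4 main bone marrow libraries were checked for 1 library far from the other 3, a check that chance trips in about 1 of 20 groups. Of 42 values checked, 2 were flagged, both in main mouse 1. AMPL376917 was read in 49.1% of its cells and in 40.3% to 41.2% of cells in the other 3, so the highest bone marrow value that the immune share of 87.2% was set against came from this library. The mean correlation within block 4 was 0.0897 in main mouse 1 and 0.0532 to 0.0539 in the other 3, against 0.135 in immune cells. The immune library was outside the range at both with main mouse 1, and so also without it.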

How the results depend on the processing

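No paired analysis was possible because the immune library is a single sample, whose labels tie it to none of the bone marrow mice. At 26 named amplicons, over the intermediate amplicons and in the first component, no difference changed sign under any alternative run. The amplicons named as close to the line were not among these 26, and without thinning AMPL371427 was not above the range. DESeq2 on summed reads had no excess of higher over lower calls, while edgeR on summed reads had 12 higher and 1 lower. At equal depth every cell has the same total, so summed reads cannot show a rise at all amplicons together. Whether this bears on the DESeq2 counts was not tested. The numbers of amplicons 10 points above and below the range were 57 and 29 without thinning. A call of 5 reads gave 8 below. The line at 5 points gave 162 and 29, and at 20 points 43 and 1. The main libraries alone gave 156 above, and the replicate libraries alone 65 below. Leaving out 1 bone marrow library in turn gave 101 to 118 above and 14 to 16 below. Fewer reference libraries can only narrow the range, so none of these counts could fall. By edgeR, a call of 5 reads gave 63 higher and no thinning 59 higher, the main libraries alone 218 higher and 20 lower, and the replicate libraries alone 54 lower. With median log odds set equal there were 64 higher and 51 lower, on summed reads 12 and 1, and with DESeq2 on summed reads 25 and 32. Leaving out 1 bone marrow library gave 86 to 142 higher and 7 to 13 lower, the 7 without main mouse 3. Of 26 named amplicons, 22 were called, and 20 calls were lost on summed reads with edgeR and 13 with DESeq2, but these amplicons were mostly picked on the shares tested. The cause of these changes was not tested. The immune minus bone marrow difference in variance on the first component over the 115 amplicons was -3.91 points. It was -3.08 with a call of 5 reads, -3.27 without thinning and -3.48 at 3069 reads per cell. Over the 321 inside the line it was 2.30, and 1.73 with a call of 5 reads and 1.62 without covariates. Leaving out 1 bone marrow library, an alternative chosen after seeing the data, gave -4.01 to -3.80 and 2.20 to 2.39. The intermediate mean difference of 7.96 points ran from 7.35 to 8.65 over the same omissions. Of amplicon and protein pairs, 52 to 75 passed 0.1 over the 4 alternatives, against 70, and the 8 amplicons positive with CD11b became 4 with no UMI minimum. Resolution 1, also chosen after seeing the data, gave 10 clusters and resolution 0.3 gave 4.

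The shallow immune library sets the common depth, and a share of 0 there would allow up to 0.0428%. With a single immune library, no alternative tests how mature immune cells of other mice would vary. The protein tags differ little between cells and barcodes outside cells, which limits what they can separate.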

Other observations

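Amplicons inside the line also followed proteins in immune cells. AMPL371259 had a partial rho of 0.292 with CD11b and AMPL388705 of -0.277 with CD45R, both chosen after their values were seen.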
